A study of Mus musculus with 6 samples.

Results

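Pkd2l1 encodes a cation channel of the polycystin family, and it is described here together with 7 related genes: the polycystin genes Pkd1, Pkd2 and Pkd2l2 and the TRP (transient receptor potential) channel genes Trpm7, Trpv2, Mcoln1 and Mcoln2. The members were chosen by symbol, and every probe set annotated to one of them alone was taken. Of the 8 genes, 7 had such a probe set, out of 18194 genes on the array, with 13 probe sets in all. Pkd2 was not analysed here. The set is built around Pkd2l1 because of its difference between the groups in these arrays, and the other members were named with the same comparison known. The differences of the members are therefore a description and carry no test.

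Messenger RNA was measured in 32D cells, a mouse myeloid line that depends on interleukin-3. The miR-9/9* group is 3 samples with construct C2-MiR-9, which makes both strands of a microRNA precursor, miR-9 and miR-9*, and the other group is 3 samples with the empty construct A1-EV. Both groups grew in 10% fetal calf serum with 10 ng/ml interleukin-3. The labels do not say whether each construct line is a clone or a pool of cells, and the design text calls the replicates independent without saying how they were kept apart, so the spread between replicates may be technical.

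Polycystins and TRP channels are membrane proteins that let calcium, magnesium, sodium or other cations through. Polycystin-1, from Pkd1, pairs with the channel polycystin-2 at the primary cilium, and loss of either gene causes polycystic kidney disease in people. PKD2L1 is a relative of polycystin-2 that, in the mouse, marks acid-sensing taste cells and neurons in contact with the cerebrospinal fluid. Among blood cells, channels of the TRP family are best known for magnesium entry through TRPM7, for TRPV2 in macrophages and for the mucolipin channels of endosomes and lysosomes.

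The agents of the experiment are shown with bases 2 to 8, the seed that pairs with a target message, in capitals. Both are mature mouse sequences of RefSeq (GRCm38.p6), where miR-9 is miR-9-5p and miR-9* is miR-9-3p. Each is encoded identically at 3 loci, Mir9-1, Mir9-2 and Mir9-3. At Mir9-1, on the plus strand, the first lies at chr3:88215613-88215635 and the second at chr3:88215652-88215673.
mmu-miR-9-5p: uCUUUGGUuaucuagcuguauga
mmu-miR-9-3p: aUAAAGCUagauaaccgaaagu
The 2 seeds differ, so the cells received 2 separate pairing sequences. Seed matches in the messages of the members were not searched here.

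Each array gives a MAS5 signal per probe set on a linear scale, scaled so that the trimmed mean is 100. Array medians lay between 12.0 and 15.2, and 0 pairs of arrays held identical values. A probe set is called near the floor here when its mean log2(signal + 16) is at or below the median of all probe sets, which corresponds to a signal of 12.9. Arrays of replicate number 3 stood apart from the others in both groups on the first principal component, which carried 45.7% of the variance. Of 10 myeloid progenitor markers, 8 lay above that floor, Ptprc, Spi1 and Csf2rb among them, and the primary granule gene Elane and the surface marker Cd34 below it. Levels of different probe sets are not comparable, so differences are read within a probe set. The summed signals given for some lists add unlike probe sets and follow the brightest of them. They are no measure of the called genes.

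Pkd2l1 was lower in cells with miR-9/9* on every array. Its only probe set, 1457105_at, had signals of 23.2, 25.7 and 19.8 in miR-9/9* replicates 1, 2 and 3, against 129, 134 and 56.1 in the empty vector replicates. The groups did not overlap, and all 6 values lay above the median of their own array. Those with miR-9/9* were dim, not far above the floor signal of 12.9, and the ratios below rest on them. The means were 22.9 ± 3.00 with miR-9/9* and 106 ± 43.6 with the empty vector (SD, n = 3 each). Within replicate numbers the signal with miR-9/9* was 0.180, 0.193 and 0.352 times that with the empty vector. Most of the spread lay in the empty vector group, where replicate 3 had the lowest signal.

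On the log2(signal + 16) scale, which understates changes of dim genes, the difference of Pkd2l1 was -1.58, with an SE of 0.28 without and 0.19 with the replicate number as a block. The differences within numbers were -1.89, -1.84 and -1.01. Without replicate number 3 the mean difference was -1.87. Of the 10209 genes tested, Pkd2l1 had the most negative difference, ahead of S100a8, a late neutrophil gene, at -1.36. It was also the most negative with a pseudocount of 1, where the difference was -2.07, and after quantile normalization (-1.62). With a pseudocount of 64 it was -0.94 and Pkd2l1 ranked 6, behind Serpinb1a at -1.18. In bulk RNA such as this, fewer cells with a message and less message per cell cannot be told apart.

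**Figure D1:**
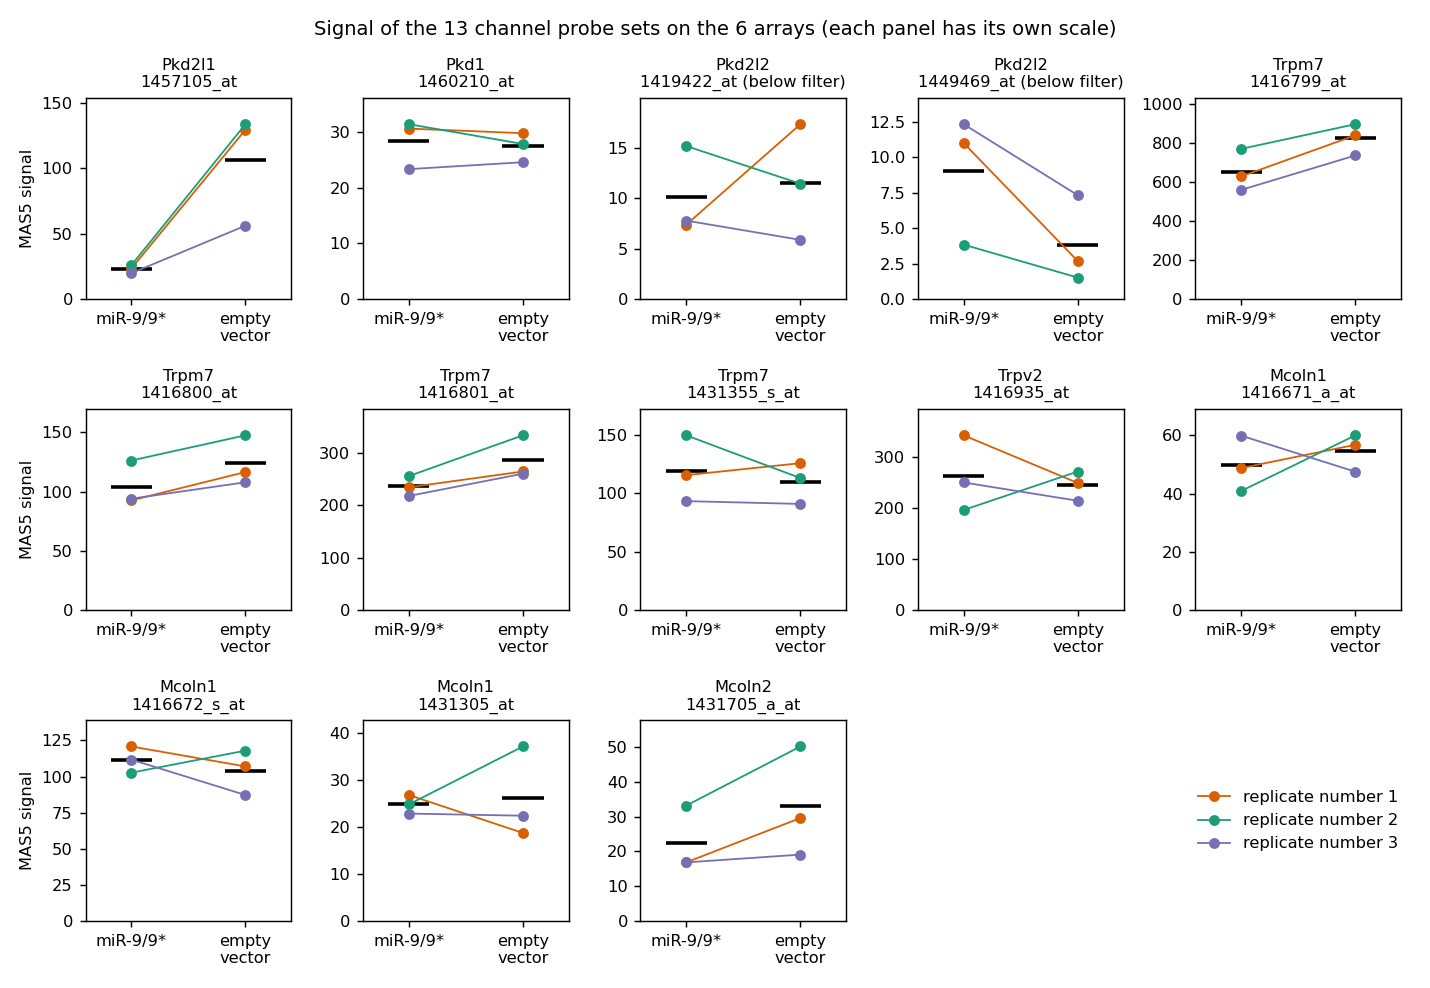
MAS5 signal (linear axis from 0, own scale per panel) of the 13 probe sets in miR-9/9* and empty vector cells, with points joined by replicate number and black bars at the group means (n = 3 each). Pkd2l1 lies between 19.8 and 25.7 in miR-9/9* cells and between 56.1 and 134 in empty vector cells, whereas most other panels overlap.

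Among the other polycystin members only Pkd1 could be compared. Pkd1, the large receptor-like partner of polycystin-2, had signals of 30.6, 31.4 and 23.3 with miR-9/9*, against 29.8, 27.8 and 24.6 with the empty vector (probe set 1460210_at). The groups overlapped, and the log2 difference was 0.03 with a block SE of 0.15. Pkd2l2, a polycystin-2 relative known from testis, was near the floor in both of its probe sets. Probe set 1419422_at had 7.37, 15.2 and 7.78 with miR-9/9*, against 17.3, 11.4 and 5.87 with the empty vector. Probe set 1449469_at had 11.004, 3.84 and 12.3 with miR-9/9*, against 2.67, 1.52 and 7.32 with the empty vector. Signals this low carry no order between the groups, and no direction is read from them.

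Trpm7 encodes a cation channel joined to a protein kinase and is a main route for magnesium into vertebrate cells. It was lower with miR-9/9* in all 3 replicate numbers in 3 of its 4 probe sets. Its brightest, 1416799_at, had 629.7, 771 and 561 with miR-9/9*, against 841, 898 and 738 with the empty vector. The groups overlapped in that replicate 2 with miR-9/9* exceeded replicate 3 with the empty vector, but within each number the miR-9/9* array was lower. The means were 654 ± 107 with miR-9/9* and 826 ± 81.4 with the empty vector (SD, n = 3 each), a log2 difference of -0.34 (block SE 0.07).

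The further probe sets of Trpm7 gave smaller differences. Probe set 1416801_at had 235, 256 and 218 with miR-9/9*, against 265, 334 and 261 with the empty vector, without overlap and with a log2 difference of -0.26. Probe set 1416800_at had 92.5, 126 and 94.0 with miR-9/9*, against 117, 147 and 108 with the empty vector, a log2 difference of -0.22 with overlapping groups. Probe set 1431355_s_at went the other way, at 115, 149 and 93.2 with miR-9/9*, against 126, 113 and 90.8 with the empty vector. Its log2 difference was 0.09, with pairs of both signs, and it turned to -0.06 without miR-9/9* replicate 2 and to -0.02 without empty vector replicate 3. The probe sets of Trpm7 therefore disagree, and the position of each within the message is not given in the sources used here.

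Trpv2, a cation channel that mouse macrophages use in phagocytosis, was above the floor and had no common direction. Its probe set 1416935_at had 343, 197 and 251 with miR-9/9*, against 249.5, 272 and 215 with the empty vector. The miR-9/9* array was higher within numbers 1 and 3 and lower within number 2, and the log2 difference was 0.07 (block SE 0.16).

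Mcoln1 encodes mucolipin-1, the lysosomal calcium and iron release channel lost in mucolipidosis type IV in people. All 3 of its probe sets lay above the floor, with overlapping groups and pairs of both signs. Probe set 1416672_s_at had 121, 103 and 112 with miR-9/9*, against 107, 118 and 87.3 with the empty vector. Probe set 1416671_a_at had 48.7, 40.9 and 59.8 with miR-9/9*, against 56.7, 60.0 and 47.5 with the empty vector. The dimmest, 1431305_at, had 26.9, 24.8 and 22.9 with miR-9/9*, against 18.8, 37.2 and 22.4 with the empty vector. Their log2 differences were 0.10, -0.11 and -0.02, each within its block SE of 0.11, 0.15 and 0.18.

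Mcoln2, the mucolipin that activated mouse macrophages induce, was dim but above the floor. Its probe set 1431705_a_at had 16.9, 33.1 and 16.9 with miR-9/9*, against 29.6, 50.03 and 19.1 with the empty vector. The miR-9/9* array was lower within each number, but the groups overlapped because replicate 2 was high in both. The log2 difference was -0.33 (block SE 0.16), from -0.09 without empty vector replicate 2 to -0.55 without empty vector replicate 3.

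**Figure D2:**
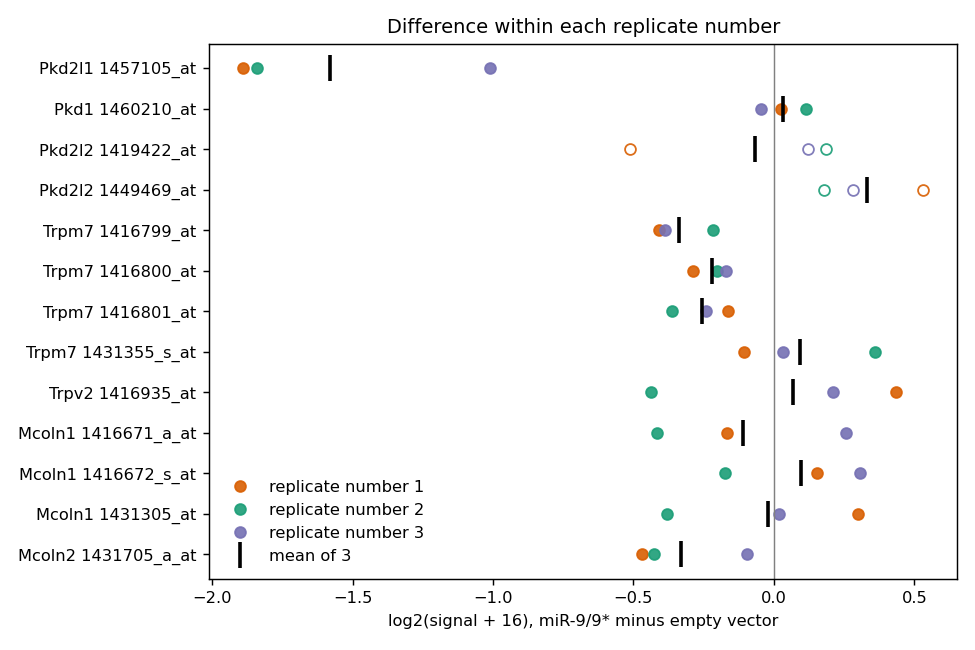
Difference in log2(signal + 16), miR-9/9* minus empty vector, within each replicate number for the 13 probe sets; black ticks are the mean of the 3 differences and open circles mark probe sets near the floor. Pkd2l1 stands at -1.89, -1.84 and -1.01, and 3 of the 4 Trpm7 probe sets and that of Mcoln2 lie below 0 in all 3 numbers.

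Of the 7 genes, 6 had a probe set above the floor and entered the fit across all genes (limma, Benjamini-Hochberg adjustment, threshold 0.05). Without a block 0 of the 6 were called, where 0.0588% of all tested genes were (0.0196% higher and 0.0392% lower). With the replicate number as a block 2 of the 6 were called, Pkd2l1 and Trpm7, both lower, where 2.96% of all genes were called (1.51% higher and 1.45% lower). Since the members were chosen on this comparison, nothing is read from that count. The call of Trpm7 was lost in the blocked fit without a variance trend, when probe sets near the floor were kept in, without replicate 1 and without replicate 3. With each probe set as a unit only Pkd2l1 of the members was called with the block, where 1.95% of 22518 probe sets were (1.02% higher and 0.933% lower). Without the block 0 member probe sets were called, where 0.00888% of all were, each of them higher.

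**Figure D3:**
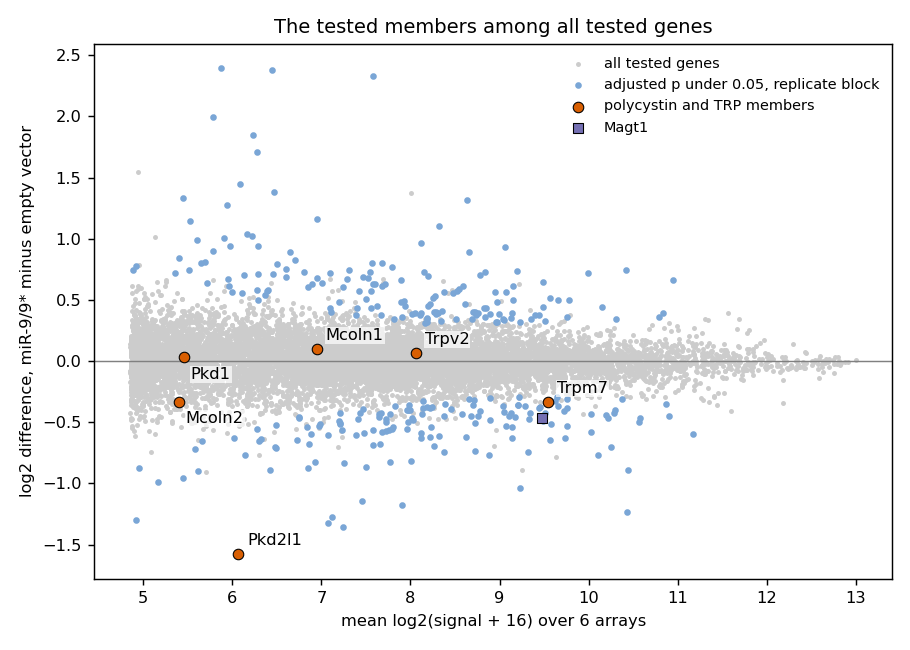
Mean log2(signal + 16) over the 6 arrays (horizontal) against the log2 difference, miR-9/9* minus empty vector (vertical), for the 10209 tested genes; orange circles are the 6 tested members, blue points have an adjusted p under 0.05 with the block and the purple square is Magt1. Pkd2l1 has the most negative difference of all, -1.58, and the other members lie between -0.34 and 0.10.

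The family as a whole, every TRP channel and polycystin gene by symbol, gives the setting. Of 33 family genes listed, 27 had a probe set of their own and 11 were above the floor. In limma 0 were called without a block (2 with an unadjusted p under 0.05). With the block 2 were called (3 with an unadjusted p under 0.05), beside the 2.96% of all genes called. The 2 called are Pkd2l1 and Trpm7, members chosen with this comparison known, so the count is no separate evidence. Over all genes an unadjusted p under 0.05 was reached by 4.6% without and 17% with the block, and each such count of a list is to be read beside these shares. Their median log2 difference was 0.03, beside 0.01 over all genes. None of the 5 tested family genes outside the members passed in either fit. Trpm4, a sodium channel opened by calcium, was at 59.2 ± 2.84 with miR-9/9* and 63.5 ± 10.5 with the empty vector (log2 difference -0.07, block adjusted p = 0.815). Trpm2, a channel opened by ADP-ribose, was at 43.0 ± 28.1 with miR-9/9* and 34.3 ± 23.8 with the empty vector (log2 difference 0.22, block adjusted p = 0.601). Pkd1l2 and Trpc2 were at 28.0 ± 4.91 and 29.2 ± 10.1 with miR-9/9*, and at 23.8 ± 3.24 and 21.4 ± 6.11 with the empty vector (block adjusted p = 0.670 and 0.439). Outside the members 15 family genes were near the floor, from Trpc1, at most 1.27 on any array, to Trpa1, at most 21.0.

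Pkd2l1 is best known from acid-sensing taste cells, and 7 further genes, listed for acid sensing or for such cells, were looked up. Otop1, the proton channel of those cells, Kcnj2, Snap25, Car4 and the acid-sensing ion channel genes Asic1, Asic2 and Asic3 were all near the floor. Their highest signal on any array was 17.0, for Asic1. The summed signal of the 7 ran from 35.8 to 43.9 with miR-9/9* and from 34.1 to 43.7 with the empty vector.

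Among 12 genes of magnesium transport, listed because TRPM7 carries magnesium, 9 were tested. With the block 1 was called in limma, Magt1, which was lower, beside 1.51% of all genes called higher and 1.45% lower. Without the block 0 were called. An unadjusted p under 0.05 was reached by 1 without and 1 with the block, beside 4.6% and 17% of all genes. The list was chosen with earlier results of these data known, so nothing is read from the count. Magt1 encodes a subunit of the enzyme complex that attaches N-linked sugars and has been described as a magnesium transporter. Its probe set 1428624_at had 546, 569 and 661 with miR-9/9*, against 781, 839.9 and 846 with the empty vector. The groups did not overlap, and the log2 difference was -0.47 (block adjusted p = 0.00903, limma, against 0.470 without the block, lower in 3 of 3 pairs). A second probe set, 1419459_a_at, had 228, 282 and 267 with miR-9/9*, against 373, 453 and 380.4 with the empty vector, also without overlap (log2 difference -0.60, block adjusted p = 0.00440 among probe sets). The blocked call of Magt1 was lost without a variance trend (adjusted p = 0.0965), the highest of a range from 0.00219 over the blocked alternatives. The list's median log2 difference was -0.11, beside 0.01 over all genes, and the SLC41 magnesium transporter genes, tested with the others, did not pass.

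The remaining pathway genes gave no calls in limma. Of 13 tested genes for folding and trafficking of polycystins, 0 passed in either fit (unadjusted p under 0.05 for 0 without and 2 with the block, beside 4.6% and 17% of all genes). Sec61b, of the channel that passes new proteins into the endoplasmic reticulum, was at 2414 ± 171 with miR-9/9* and 2601 ± 117 with the empty vector (block adjusted p = 0.529). Dnajb11, a chaperone in the endoplasmic reticulum, was at 412 ± 66.4 with miR-9/9* and 440.2 ± 97.0 with the empty vector (block adjusted p = 0.657). Of 12 tested genes around the mucolipins and lysosomal calcium, 0 passed (unadjusted p under 0.05 for 0 without and 2 with the block, beside the same 4.6% and 17%). The lysosomal membrane protein gene Lamp1 was at 1576 ± 131 with miR-9/9* and 1531 ± 78.7 with the empty vector (block adjusted p = 0.838). Lamtor1, of the complex that anchors mTORC1 signalling at lysosomes, was at 1445 ± 159 with miR-9/9* and 1540.2 ± 199 with the empty vector (block adjusted p = 0.579). Of 12 tested genes for store-operated calcium entry and calcium release, 0 passed (again 0 and 2 at an unadjusted p under 0.05, beside 4.6% and 17%). The calcium pump genes Atp2a2 and Atp2a3 were at 1449.8 ± 29.8 and 657 ± 150.1 with miR-9/9*, and at 1442 ± 95.3 and 620 ± 171 with the empty vector (block adjusted p = 0.970 and 0.536).

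**Figure D4:**
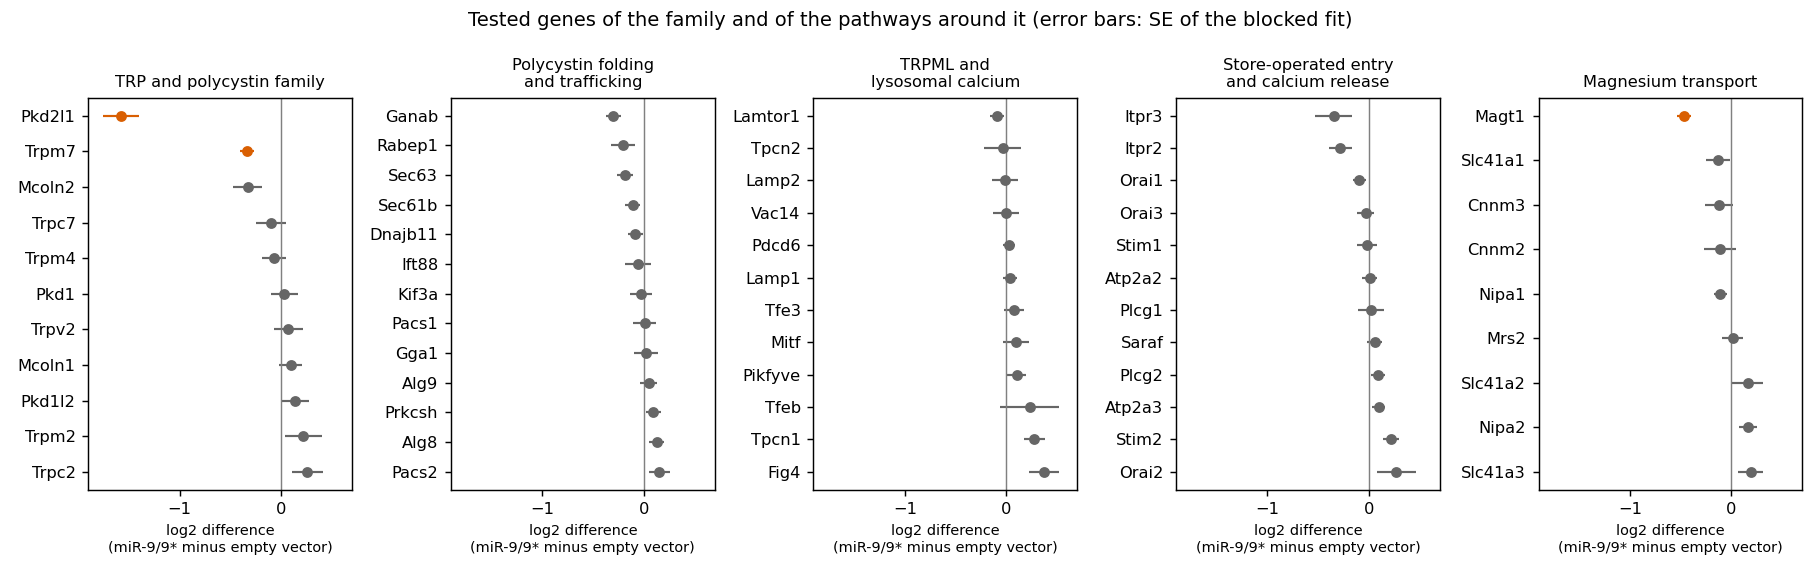
Log2 difference, miR-9/9* minus empty vector (horizontal), of every tested gene of the family and of 4 pathway lists, with the SE of the blocked fit as error bars; orange marks an adjusted p under 0.05 with the block. Pkd2l1 at -1.58, Trpm7 at -0.34 and Magt1 at -0.47 are the marked genes.

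Genes next to Pkd2l1 were examined because their order on the chromosome does not depend on the arrays. Pkd2l1 lies on chromosome 19 in the RefSeq gene table of GRCm38.p6, and Scd3, a stearoyl-CoA desaturase gene, lies within its annotated span. The 3 nearest protein-coding genes with a probe set on each side were Erlin1, Cwf19l1 and Bloc1s2, and Scd3, Scd2 and Scd1. Of these 6, 5 were tested and 0 passed in limma in either fit (unadjusted p under 0.05 for 0 without and 3 with the block, beside 4.6% and 17% of all genes), while Scd1 was near the floor, at most 12.5 on any array.

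The genes with the lowest unadjusted p were Bloc1s2, Scd2 and Scd3. Scd3 probe set 1450956_at had 16.5, 15.6 and 20.6 with miR-9/9*, against 26.0, 53.7 and 21.1 with the empty vector. The groups did not overlap, but within number 3 the arrays were nearly level, and the log2 difference was -0.51 (block adjusted p = 0.253). Scd2 probe set 1415822_at had 2319, 2788 and 2244 with miR-9/9*, against 3095, 3246 and 2616 with the empty vector, a log2 difference of -0.28 (block adjusted p = 0.112). Of the 5 probe sets of Scd2 and Scd3, 4 were lower with miR-9/9* in all 3 numbers. They include the dim Scd3 1423366_at, with a mean of 10.9 with miR-9/9*, below the floor signal of 12.9, against 18.8 with the empty vector. Probe sets of 1 gene are not independent, and the share of all probe sets with such a pattern was not counted. Nothing is therefore read from the count. Bloc1s2, a subunit of a lysosome positioning complex, had 946, 673 and 913 with miR-9/9*, against 1047, 907 and 1157 with the empty vector (log2 difference -0.30, block adjusted p = 0.0698). Scd2 passed only in the blocked fit without replicate 3 (adjusted p = 0.0245). Erlin1 and Cwf19l1 stood at 0.07 and -0.06.

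**Figure D5:**
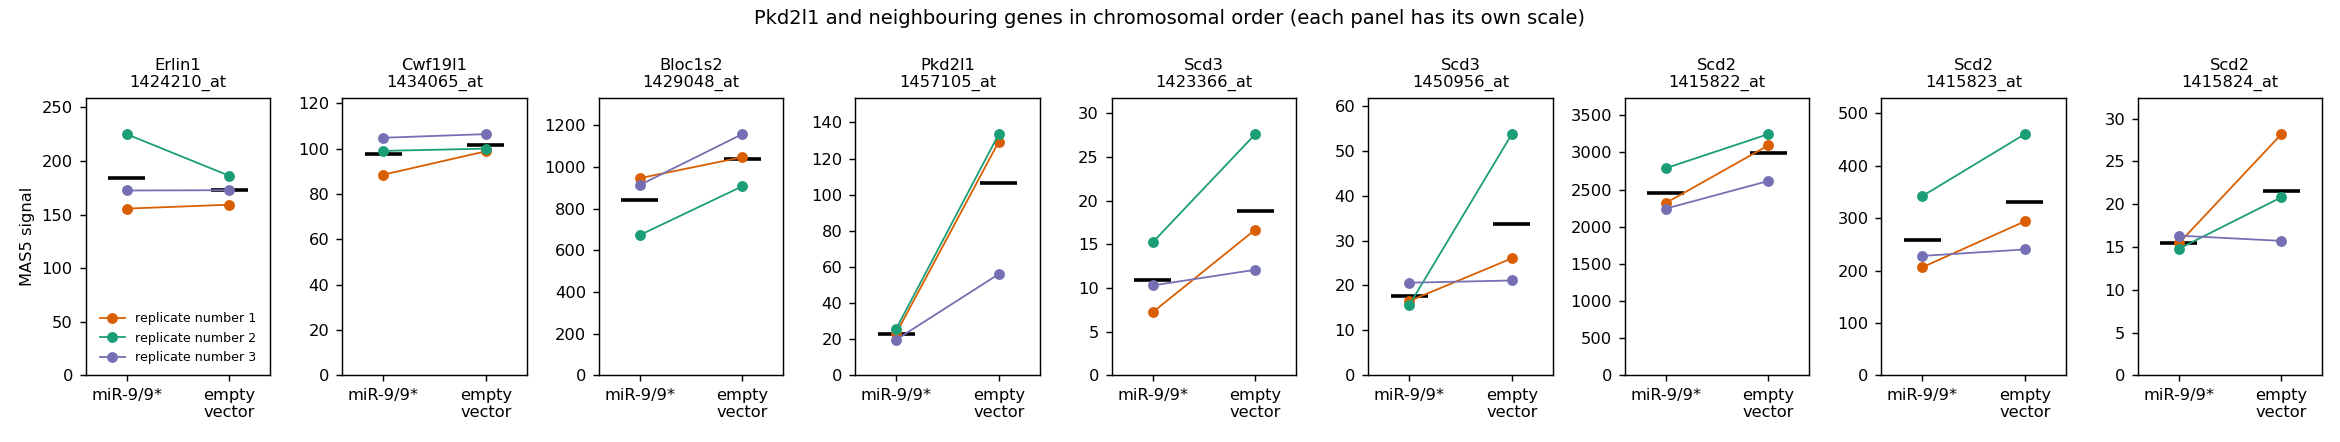
MAS5 signal (linear axis from 0, own scale per panel) of Pkd2l1 and of tested neighbouring genes in chromosomal order, in miR-9/9* and empty vector cells, joined by replicate number, with black bars at the group means (n = 3 each). Pkd2l1 and, narrowly, Scd3 1450956_at separate the groups, and Erlin1 and Cwf19l1 overlap.

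The genes whose pattern over the 6 arrays was most like that of Pkd2l1 were Pdlim5, Atp11b, Atp10a, Hand1 and Ulk2. Their Pearson correlations of log2(signal + 16) with Pkd2l1 ran from 0.981 to 0.991, chosen as the highest of 10208 genes, and each was lower with miR-9/9* on all arrays, without overlap. A correlation over 6 arrays in 2 groups carries that difference in part. Over deviations from the group means the correlations with Pkd2l1 were 0.944, 0.997, 0.941, 0.994 and 0.879, in the order named. The genes were picked for likeness on the same arrays, so these values are a description. Hand1, a transcription factor gene, passed the filter only through the empty vector group, with 11.1, 11.4 and 11.1 with miR-9/9*, below the floor, against 17.6, 17.7 and 15.5 with the empty vector. Pdlim5, a scaffold protein of the actin cytoskeleton, had 613, 571 and 587 with miR-9/9*, against 997, 1044 and 774 with the empty vector. The phospholipid flippase gene Atp11b had 429.7, 429.9 and 412 with miR-9/9*, against 562, 565 and 461 with the empty vector. In each, as in Pkd2l1, replicate 3 was the lowest of the empty vector arrays. Among the members Trpm7 came next by the correlation over the 6 arrays, at 0.851 and behind 240 other genes, then Mcoln2 at 0.683. Pkd1, Trpv2 and Mcoln1 lay between -0.02 and 0.10. Over deviations from the group means the order was another. Mcoln1 stood at 0.793, Mcoln2 at 0.748, Trpm7 at 0.649, Pkd1 at 0.613 and Trpv2 at 0.309. High values of that kind were therefore not particular to the genes most like Pkd2l1.

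Marker genes of other blood lineages moved with the groups as well, all in the blocked fit unless said otherwise, which called 1.51% of all genes higher and 1.45% lower. Of 6 tested erythroid markers 3 rose, Gata1, Klf1 and Rhag, while Alas2 and Slc4a1 were near the floor. Hemgn, Epor and Epb42 did not pass, at log2 differences of 0.21, 0.12 and -0.15. Epor and Epb42 were each lower with miR-9/9* in 2 of 3 pairs. The summed signal of the list was 1979 to 2173 with miR-9/9* and 1266 to 1328 with the empty vector. Of 6 megakaryocyte markers 4 rose, Itgb3, Gp9, Gp5 and Vwf. Itga2b and Pf4 did not pass (block adjusted p = 0.684 and 0.983, limma). The sums were 1495 to 2846 with miR-9/9* and 1211 to 2260 with the empty vector. Most of each sum was Itga2b, with 1331, 1645 and 1015 with miR-9/9*, against 1280, 1595 and 946 with the empty vector. Of 6 late neutrophil markers 3 fell, S100a8, S100a9 and Ltf, at sums of 239.8 to 2640 with miR-9/9* and 1004 to 3901 with the empty vector, with Camp near the floor. These granule and calcium-binding protein genes are made late in neutrophil maturation. Ngp, the brightest of the list, and Lcn2 were also lower but did not pass (block adjusted p = 0.183 and 0.177, limma). Mmp9 was slightly higher in all 3 numbers (log2 difference 0.18, block adjusted p = 0.627). The sums of this list follow Ngp more than S100a8, S100a9 and Ltf. Of 3 eosinophil markers 2 rose, Prg2 and Siglecf, with Il5ra near the floor. Epx did not pass (block adjusted p = 0.388, limma) and was lower within number 2, at 54.4 against 104. The sums were 274 to 3611 with miR-9/9* and 255 to 1371 with the empty vector. Epx, at 2270 in miR-9/9* replicate 1, was the largest part of the highest sum. Of 4 monocyte and macrophage markers 1, F13a1, rose in both fits. Cd68 went the other way, lower in all 3 numbers, but did not pass (log2 difference -0.46, block adjusted p = 0.0753, limma). Csf1r and Adgre1, at 0.18 and 0.34, did not pass either. The sums of the list were 756 to 849 with miR-9/9* and 605 to 805 with the empty vector. Of 4 mast cell and basophil markers 0 passed in limma (unadjusted p under 0.05 for 0 without and 2 with the block, beside 4.6% and 17% of all genes), at sums of 30.7 to 199 with miR-9/9* and 43.0 to 187 with the empty vector, with Tpsb2 near the floor. The 3 lymphoid markers with a probe set were near the floor in both groups. Of the 8 tested myeloid progenitor markers 1, the interleukin-3 receptor subunit gene Csf2rb, fell. An unadjusted p under 0.05 was reached by 1 without and 4 with the block, beside 4.6% and 17% of all genes. By sign 5 were lower and 3 higher. Mpo, at 1.38, and Myb, at 0.27, were higher without passing (block adjusted p = 0.0726 and 0.104, limma). Within number 2 Mpo was lower. The sums of the list were 6396 to 9850 with miR-9/9* and 6894 to 8433 with the empty vector. The part of these lineages in the difference of Pkd2l1, Trpm7 or Magt1 was not tested.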

How the data were processed

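The deposited values are MAS5 signal intensities on a linear scale from 1-colour arrays hybridised with biotinylated cRNA, per the submitters' processing notes and the labels' protocols. Probe sets were named from a 2016 platform annotation, in which 34958 of 45101 carry 1 symbol, and 34754 of those matched a RefSeq gene by Entrez ID. Signals were transformed to log2(signal + 16) with no further normalization. For the fit across genes each gene was represented by its probe set of highest mean, and those at or below the median of all probe sets (4.86) were left out. The comparison used limma 3.58.1 under R 4.3.3, with a variance trend, two-sided tests and Benjamini-Hochberg adjustment. Replicate numbers come from the titles. Deviations of same-numbered arrays from their group means correlated at 0.491, 0.616 and 0.680, so a blocked fit, with the number as a factor, is given where it changes a call. That pairing rests on those correlations, because no label explains the numbers, and the blocked fit leaves 2 residual degrees of freedom. The code was tested on simulated data. Named genes outside the members are every called gene of a list, or else its brightest members (4 for the family, 2 for a pathway), the 6 neighbours of Pkd2l1 and the 5 genes most like it. The members and lists were chosen with earlier results of these data known. Other pseudocounts, filters and scalings, array weights and left-out arrays were tried. The number of arrays limits the precision.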

Additional observations from a re-analysis of the deposited data

How the results depend on the processing

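Of 130 values of the 13 member probe sets under other pseudocounts, scalings or without 1 array, 3 moved by more than the spread between replicates: Pkd2l1 with a pseudocount of 1 (-2.07) or 64 (-0.94), and Pkd2l2 1449469_at with a pseudocount of 1 (1.11). Small member differences changed sign when 1 array was left out. The ranges were -0.13 to 0.25 for Trpv2, -0.018 to 0.12 for Pkd1 and -0.22 to 0.079 for Pkd2l2 1419422_at. They were -0.0093 to 0.18 for Mcoln1 1416672_s_at, -0.15 to 0.16 for Mcoln1 1431305_at and -0.061 to 0.24 for Trpm7 1431355_s_at. Calls over all genes, 6 in the fit described, numbered 2 with a pseudocount of 1, 0 without a filter (in limma), 3 without a variance trend, 26 with array weights and 0 to 8 without 1 array. With the replicate block they numbered 302, and 38 without a variance trend, 74 without a filter, 273 after quantile normalization, 282 and 293 with pseudocounts of 1 and 64, and 164, 354 and 396 without replicate numbers 1, 2 and 3. Over probe sets they numbered 2, or 439 with the block and 0 without a filter. Family genes called numbered 0, but 1 with array weights and 0 to 1 without 1 array, that gene being Pkd2l1. With the block they numbered 2, and also 2 after quantile normalization or with either pseudocount, 1 without a variance trend or filter, and 1 to 2 without a replicate number. Pathway genes called numbered 0, and 1 (Magt1) with the block, also without a filter, after quantile normalization, with either pseudocount and without each replicate number. Neighbours called numbered 0, and 1 (Scd2) with the block without replicate 3, so 0 to 1. Of the 5 genes most like Pkd2l1, 3 remained with a pseudocount of 64 and 2 after quantile normalization. Differences that did not pass changed sign in places. Leaving out 1 array, their ranges were -0.16 to 0.026 for Trpm4, -0.14 to 0.58 for Trpm2 (-0.033 without empty vector replicate 3), -0.23 to 0.074 for Dnajb11, -0.021 to 0.098 for Lamp1, -0.18 to 0.0052 for Lamtor1, -0.037 to 0.057 for Atp2a2 (-0.0063 without miR-9/9* replicate 2) and -0.15 to 0.29 for Atp2a3 (-0.043 without miR-9/9* replicate 2). With the block, Trpm2 was at -0.021 without replicate 3 and Atp2a2 at -0.053 without replicate 2. With array weights Dnajb11 was at 0.042 and Atp2a2 at -0.035, and with arrays centred on their medians Atp2a2 was at -0.010. The causes were not tested. Probe sets near the floor, as those of Pkd2l2, limit what these arrays can show.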
